A study of Rattus norvegicus with 47 samples.

Results

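Rats kept from weaning on a marginal vitamin A diet were compared with rats kept on an adequate one, from 13 of the 47 liver arrays of a study of vitamin A status and retinoic acid. The members are the arrays of the steady-state experiment whose titles name the marginal diet (7 arrays) or the adequate diet (6 arrays). The whole study held 3 experiments on single-colour Affymetrix rat arrays, the other two of which followed doses of retinoic acid over time. The diet experiment held 20 arrays at 4 retinol levels, and the 5 vitamin A-deficient and 2 supplemented arrays are used here only to set the marginal difference beside the other levels.

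Marginal rats ate a purified AIN-93G diet with 0.4 mg retinol/kg, and adequate rats ate the same diet with 4 mg retinol/kg. Both groups were female Sprague-Dawley rats, killed at 8 weeks of age, and 1 liver gave the RNA of each array. In both groups, as in the deficient (0 mg/kg) and supplemented (100 mg/kg) groups, the nursing mothers had been fed a vitamin A-deficient diet, so no group here had a normal supply before weaning. The array titles carry identifiers in 2 runs of numbers, and each run held both diets: 4 marginal and 4 adequate arrays in the first, 3 marginal and 2 adequate arrays in the second. What the runs stand for in the laboratory is not given in the sources used here, and the run was kept as a term in the comparison. The labels name each array a separate animal, but cages and litters are not given, and p-values measure the spread between these rats. The treatment notes of the marginal samples give n = 4, whereas the study design and the titles give 7 marginal rats; all 7 arrays were counted here, and every interval below rests on that number. The deposited values behave as log2 signal with each array's median at 0; the base of the logarithm is inferred from the values and is not stated. A difference of 1 on this scale is taken as 2-fold.

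Retinol reaches tissues on retinol binding protein (Rbp4) and is stored in liver, mainly in stellate cells, as esters made by lecithin retinol acyltransferase (Lrat). Retinol is oxidised to retinaldehyde and then to retinoic acid, which binds nuclear receptors (Rara, Rarb, Rarg) paired with retinoid X receptors on DNA. Retinoic acid raises the transcription of its own clearing enzymes, of which Cyp26a1 is the best known in liver, so that these transcripts serve as readouts of retinoid supply.

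A retinoic acid receptor pair typically reads 2 half-sites arranged as a direct repeat with a spacer of 5 bases. The repeats of Cyp26a1 and Rarb are shown because these genes are the direct readouts of retinoid supply on which the bounds below are given. The search used the half-site AGGTCA and its variants, which were AGTTCA together with GGTTCA together with GGGTCA. Any of them had to be followed by NNNNN and by any of them again, on both strands of 250 bases before to 50 bases after each gene's start (RefSeq promoters, build GRCr8). Of 33469 promoters, 0.382% held such a repeat. Of the 69 retinoid genes tested below, 56 had a promoter in the table and 2 of these held the repeat. The stretch of Cyp26a1 lies on the plus strand at chr1:244883692-244883821, directly before the start, and its repeat (capitals) runs on the opposite strand. The repeat of Rarb (capitals) lies on the plus strand past the annotated start, within chr15:11336411-11336437. A match is a description of the letters and not a bound site.
Cyp26a1: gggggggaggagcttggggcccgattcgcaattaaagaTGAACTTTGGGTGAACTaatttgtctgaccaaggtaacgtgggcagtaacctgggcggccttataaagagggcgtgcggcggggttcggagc
Rarb: ggaagGGTTCACCGAAAGTTCActcgc

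The 13 arrays correlated with each other at Pearson's r of 0.79 to 0.89 over all probe sets. Each array has a floor, a lowest value that its dimmest probe sets share. The share of probe sets at the floor was 0.283% to 10.2% on marginal arrays and 0.229% to 6.68% on adequate arrays, with the high values in the second run. Within runs the marginal floor was 0.23 higher on the log2 scale (two-sided exact permutation p = 0.00571 over 700 assignments of diet within runs). The percent of probe sets at the floor was 1.37 higher on marginal arrays, with the same p in that test. Of the probe sets tested, 3172 were at the floor on at least 1 array, and 2724 of these had a mean signal below −1.07. The 3′ minus 5′ difference of the GAPDH control, a sign of RNA integrity, was 0.11 to 0.54 on marginal arrays and 0.30 to 1.37 on adequate arrays (exact permutation p = 0.389). Adequate replicate 5 held the highest value of this control and of actin (3.16), and correlated least with the other arrays (median r = 0.81). Hepatocyte markers were high on every array. The mean log2 signal of 12 such markers lay between 7.54 and 8.13 on marginal arrays and between 7.74 and 8.13 on adequate arrays.

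No transcript passed the test between marginal and adequate livers. In limma's moderated test with run as a term, 0 of 25551 probe sets had a Benjamini-Hochberg adjusted p under 0.05 (0%), and the lowest adjusted p was 0.999. At an unadjusted p under 0.05 there were 892 probe sets (3.49%), of which 525 (2.05%) were higher and 367 (1.44%) lower in marginal livers. After quantile normalization of the arrays the split was 504 higher and 480 lower, so that the share of higher ones was 51.2% in place of 58.9%. In 12 probe sets (0.047%) every marginal array lay below every adequate array, and in 9 (0.0352%) every marginal array lay above. The median difference of all probe sets was 0.03.

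A p that misses the threshold does not show that the diets gave the same levels, so the size of difference that these arrays allow was measured for each probe set. The 95% interval of the difference had a median half-width of 0.76 on the log2 scale. The bound on the size, taken as the end of the interval farther from 0, had a median of 1.05, or 2.06-fold, and reached 4.99-fold at the 90th percentile. In a test of equivalence (2 one-sided moderated tests, Benjamini-Hochberg adjusted over all probe sets), 12389 probe sets (48.5%) lay within 2-fold and 5519 (21.6%) within 1.5-fold. The count within 1.5-fold moved with several settings: it was 0 without a trend of variance on signal, 2390 with all 20 diet arrays in the fit and 2345 without the run term. It was 3385 without adequate replicate 2 and 3668 without adequate replicate 1.

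The tightness of the bound followed the signal. Probe sets were split by mean signal into 4 sets of equal size. In the brightest set the median bound was 1.34-fold and 98.6% lay within 2-fold, and in the next it was 1.62-fold with 83.8% within 2-fold. In the second dimmest set the median bound was 2.75-fold and 11.6% lay within 2-fold. In the dimmest set it was 4.28-fold and no probe set was shown to lie within 2-fold, so changes of that size were not excluded there. When the intervals were widened to hold for all probe sets at once (Bonferroni), 1985 still lay within 2-fold and 10370 (40.6%) within 4-fold.

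**Figure D1:**
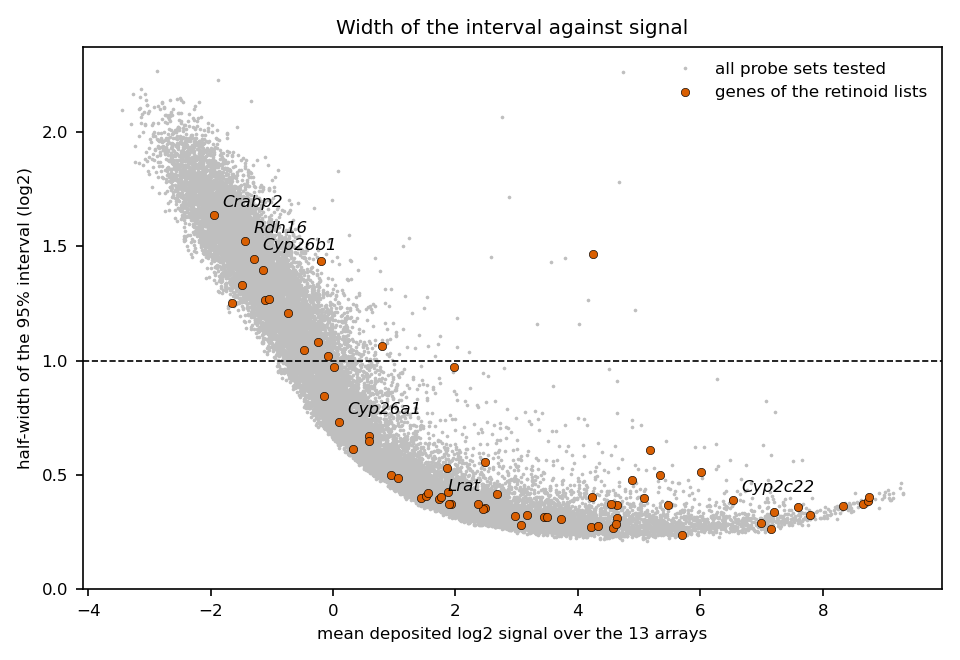
Half-width of the 95% interval of the marginal minus adequate difference (log2, vertical axis) against mean signal over the 13 arrays (log2, horizontal axis), for 25551 probe sets (grey) and 69 retinoid genes (orange). The dashed line marks a half-width of 1; retinoid genes with signal above about 2 lie below it with the exception of Pnpla3, while Crabp2, Rdh16 and Cyp26b1 lie above it.

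The retinoid genes gave a tighter bound than the typical probe set. Of 89 listed genes, 75 had a named probe set and 69 passed the filter on dim probe sets. None was called, and none had marginal and adequate arrays that did not overlap. Of all probe sets, 0.047% had every marginal array below and 0.0352% every one above, so none among 69 says little about these genes. An unadjusted p under 0.05 went with higher marginal values in 1 and with lower values in 3. Among all 12749 named genes these counts were 196 and 171. The retinoid genes had a median difference of 0.00 against 0.02 for all named genes, and a median bound of 0.59 on the log2 scale against 0.70. Within 2-fold lay 50 of the 69 (72.5%), against 62.5% of all named genes. Within 1.5-fold lay 26 (37.7%), against 32.7% of all named genes. These shares, and those of the lists below, were not matched for signal. Of the 19 not shown to lie within 2-fold, 17 had a mean signal below 1. The 6 genes that did not pass the filter were Cebpe, Cel, Ncoa2, Rbp2, Rbp3 and Ucp1.

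Among the genes that store and bind retinol, Lrat had marginal values of 0.82 to 2.12 (median 1.60) and adequate values of 1.68 to 2.03 (median 1.81). The lowest 3 values were all on marginal arrays of the second run, and the first-run arrays of both diets overlapped. Lrat differed by −0.14 ± 0.19 (SE), with a 95% interval of −0.54 to 0.25, and lay within 2-fold (adjusted p = 3.71e-04, limma). That interval corresponds to 0.689 to 1.19 of the adequate level. Dhrs3, which reduces retinaldehyde to retinol, had 3.25 to 4.55 (median 4.34) on marginal arrays and 3.80 to 4.70 (median 4.37) on adequate arrays. The ranges overlapped between 3.80 and 4.55, and the interval of the difference was −0.36 to 0.18. Rbp4, the secreted carrier, had 7.90 to 8.59 (median 8.26) on marginal arrays and 8.02 to 8.92 (median 8.28) on adequate arrays. Its difference of −0.05 ± 0.17 had an interval of −0.41 to 0.32, and Ttr, the partner of Rbp4 in plasma, had one of −0.39 to 0.42. Stra6l, a liver receptor for Rbp4, had a difference of 0.14 ± 0.14 and a bound of 1.34-fold.

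Crabp2, which carries retinoic acid to its receptors, was among the dimmest members and had the widest bound of the retinoid genes. Its values were −3.87 to −1.11 (median −2.50) on marginal arrays and −3.83 to 0.73 (median −0.49) on adequate arrays, which overlapped. The difference was −1.65 ± 0.79, with an interval of −3.29 to −0.02 (unadjusted p = 0.048). Retsat, which saturates retinol, spread from 3.99 to 6.87 on marginal arrays and from 5.71 to 6.86 on adequate arrays. It lay within 2-fold (adjusted p = 0.0039), as did Dgat1 (−0.23 ± 0.14), Rdh11 (−0.02 ± 0.15), Rdh14 (0.33 ± 0.18) and Dhrs4 (0.08 ± 0.13). Rdh13, Rbp7, Crabp1 and Stra6, the cell-surface retinol transporter, were not shown to lie within 2-fold, and the 3 tested probe sets of Stra6 gave differences from −1.77 to 0.59.

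Of the genes that free retinol from esters or cleave carotene, 9 of 10 tested (90%) lay within 2-fold, against 62.5% of all named genes. Their differences ran from −0.31 to 0.21. Bco1, the enzyme that splits beta-carotene, had 2.96 to 3.69 (median 3.53) on marginal arrays and 2.87 to 3.77 (median 3.56) on adequate arrays. The groups coincided, and the difference of −0.01 ± 0.15 had a bound of 1.25-fold. The hydrolases and lipases Lipe, Lpl, Lipc, Pnpla2, Pnpla4 and Ces1d and Ces2c, and the lipoprotein receptor Scarb1, had bounds from 1.25-fold (Lipc) to 1.91-fold (Pnpla4). Pnpla3, a lipase of lipid droplets, was the exception: its values ran from 0.06 to 6.46 on marginal arrays and from 2.10 to 5.94 on adequate arrays, and its interval of −1.69 to 1.24 allows 3.23-fold.

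Of the enzymes that make retinaldehyde and retinoic acid, 11 of 14 tested (78.6%) lay within 2-fold, against 62.5% of all named genes. Adh5 had the tightest bound of the 69 retinoid genes, 1.18-fold, with 5.52 to 5.91 (median 5.72) on marginal arrays and 5.60 to 5.99 (median 5.63) on adequate arrays. Its difference was 0.00 ± 0.11, with an interval of −0.24 to 0.23. Adh1c, the main liver alcohol dehydrogenase of this list, had a bound of 1.33-fold, and Adh4 one of 1.41-fold. The retinol dehydrogenases Rdh7 (−0.07 ± 0.14), Rdh10 (0.24 ± 0.16), Rdh5 (−0.17 ± 0.20) and Hsd17b6 (0.02 ± 0.16) lay within 2-fold. So did the retinaldehyde dehydrogenases Aldh1a1 (−0.10 ± 0.20), Aldh1a2 (−0.22 ± 0.32) and Aldh1a3 (−0.05 ± 0.18), and the oxidase Aox1 (−0.23 ± 0.19). Rdh16 was the single retinoid gene with an unadjusted p under 0.05 and higher marginal values. It had −2.58 to 1.06 (median −0.87) on marginal arrays and −4.29 to −0.81 (median −2.23) on adequate arrays, with a difference of 1.60 ± 0.73 (unadjusted p = 0.04). The first run gave 2.72 and the second −0.25. Adh7 and Dhrs9 were dim and had bounds of 4.24-fold and 3.85-fold. For Dhrs9, marginal replicate 1 was at its floor.

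The enzymes that clear retinoic acid had the largest median difference of the retinoid lists, −0.47 over 6 genes, of which 2 had an unadjusted p under 0.05 and lower values in marginal livers. Of all probe sets, 1.44% had such a p with lower values. Cyp3a9, a cytochrome of rat liver that oxidises retinoic acid, had 3.80 to 4.89 (median 4.49) on marginal arrays and 4.38 to 5.87 (median 4.87) on adequate arrays. Most marginal arrays lay below most adequate ones, with an overlap between 4.38 and 4.89. The difference was −0.54 ± 0.18, with an interval of −0.91 to −0.17 (unadjusted p = 0.00647, adjusted p = 0.999), with −0.67 from first-run arrays and −0.32 from second-run arrays. An exact permutation of diet within runs gave p = 0.0386 for Cyp3a9, and 0.280 after Benjamini-Hochberg adjustment over the 9 retinoid genes tested so. The interval spans 0.533 to 0.891 of the adequate level, and equivalence within 2-fold passed (adjusted p = 0.0192). Without adequate replicate 1 the bound reached 1.02 on the log2 scale and that equivalence was lost (adjusted p = 0.0647), as it was without the run term.

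Cyp2c22, a hepatic cytochrome that also oxidises retinoic acid, had 5.48 to 7.17 (median 6.42) on marginal arrays and 6.45 to 7.21 (median 6.76) on adequate arrays. The 2 lowest values were marginal arrays of the second run. The difference was −0.40 ± 0.19, with an interval of −0.79 to −0.01 (unadjusted p = 0.0471, adjusted p = 0.999), with −0.13 from first-run arrays and −0.85 from second-run arrays. The exact permutation of diet within runs gave p = 0.12 for Cyp2c22, and 0.280 after the same adjustment. Cyp2c22 lay within 2-fold (adjusted p = 0.00549). Cyp2c7, a cytochrome of female rat liver, had 8.21 to 9.07 (median 8.81) on marginal arrays and 8.39 to 9.19 (median 8.71) on adequate arrays, and its interval was −0.40 to 0.36.

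Cyp26a1, the clearing enzyme whose promoter repeat is printed above, had −0.97 to 0.76 (median −0.36) on marginal arrays and 0.08 to 1.26 (median 0.22) on adequate arrays. Of the 7 marginal arrays, 4 lay below every adequate array and the others lay within the adequate range. The difference was −0.56 ± 0.35, with an interval of −1.29 to 0.17 (unadjusted p = 0.127, adjusted p = 0.999; exact permutation p = 0.08), which spans 0.41 to 1.13 of the adequate level. Cyp26a1 was therefore not shown to lie within 2-fold (adjusted p = 0.178). First-run arrays gave a Cyp26a1 difference of −0.33 and second-run arrays −0.95. Without adequate replicate 1, of the second run, the difference over both runs was −0.38. Cyp26b1, a second clearing enzyme, had −3.67 to −0.28 (median −1.43) on marginal arrays, 1 of them at its floor, and −3.16 to 0.48 (median −0.12) on adequate arrays. The groups overlapped, and the difference of −1.25 ± 0.70 had an interval of −2.69 to 0.20, which allows 6.47-fold. Single arrays moved this difference, to −0.78 without adequate replicate 2 and to −1.71 without adequate replicate 1. Cyp2s1 had a bound of 2.78-fold.

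Of 11 tested receptors, cofactors and binding proteins, 7 (63.6%) lay within 2-fold, against 62.5% of all named genes. Rarb, which carries a retinoic acid repeat at its start, had 4.04 to 5.08 (median 4.80) on marginal arrays and 4.12 to 4.91 (median 4.35) on adequate arrays. The ranges were nearly the same, and the difference of 0.19 ± 0.18 had an interval of −0.18 to 0.56, within 2-fold (adjusted p = 3.61e-04, limma). Rara had a difference of −0.01 ± 0.23 and a bound of 1.41-fold. Rxrg, a retinoid X receptor, had a bound of 1.32-fold, but its 2 tested probe sets gave −0.08 and 0.57. Rarg, Rxra and Rxrb had bounds of 3.49-fold, 3.52-fold and 2.49-fold. Rxra had the highest difference of this list, 0.75, with −1.72 to 1.96 on marginal arrays and −1.58 to 1.42 on adequate arrays. The corepressor Ncor1 (0.03 ± 0.15), the coactivator Ncoa1 (0.17 ± 0.17), the cofactor Nrip1 (0.06 ± 0.20) and the lipid-binding protein Fabp5 (0.00 ± 0.29) lay within 2-fold, and Ncoa3 (−0.71 ± 0.64) was not shown to.

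Of 20 tested genes listed as targets of retinoic acid receptors in some tissue, 13 (65%) lay within 2-fold. The share of all named genes was 62.5%. Tgm2, a transglutaminase, had 3.68 to 4.86 (median 4.39) on marginal arrays and 4.14 to 4.71 (median 4.25) on adequate arrays, with a bound of 1.26-fold. Rarres1 and Rarres2, named as retinoic acid receptor responders, had bounds of 1.52-fold and 1.31-fold. The metabolic targets Pck1 (0.07 ± 0.17), Cpt1a (−0.12 ± 0.24) and Pdk4 (−0.17 ± 0.23), the homeobox genes Meis1 (0.04 ± 0.18) and Meis2 (0.15 ± 0.31), the bile acid repressor Nr0b2 (−0.27 ± 0.27) and the liver factor Foxa1 (−0.17 ± 0.19) also lay within 2-fold. Egr1, Nr4a1 and Cdx1 were not shown to, with bounds of 2.47-fold, 3.94-fold and 2.53-fold. For Cdx1, marginal replicate 2 was at its floor.

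**Figure D2:**
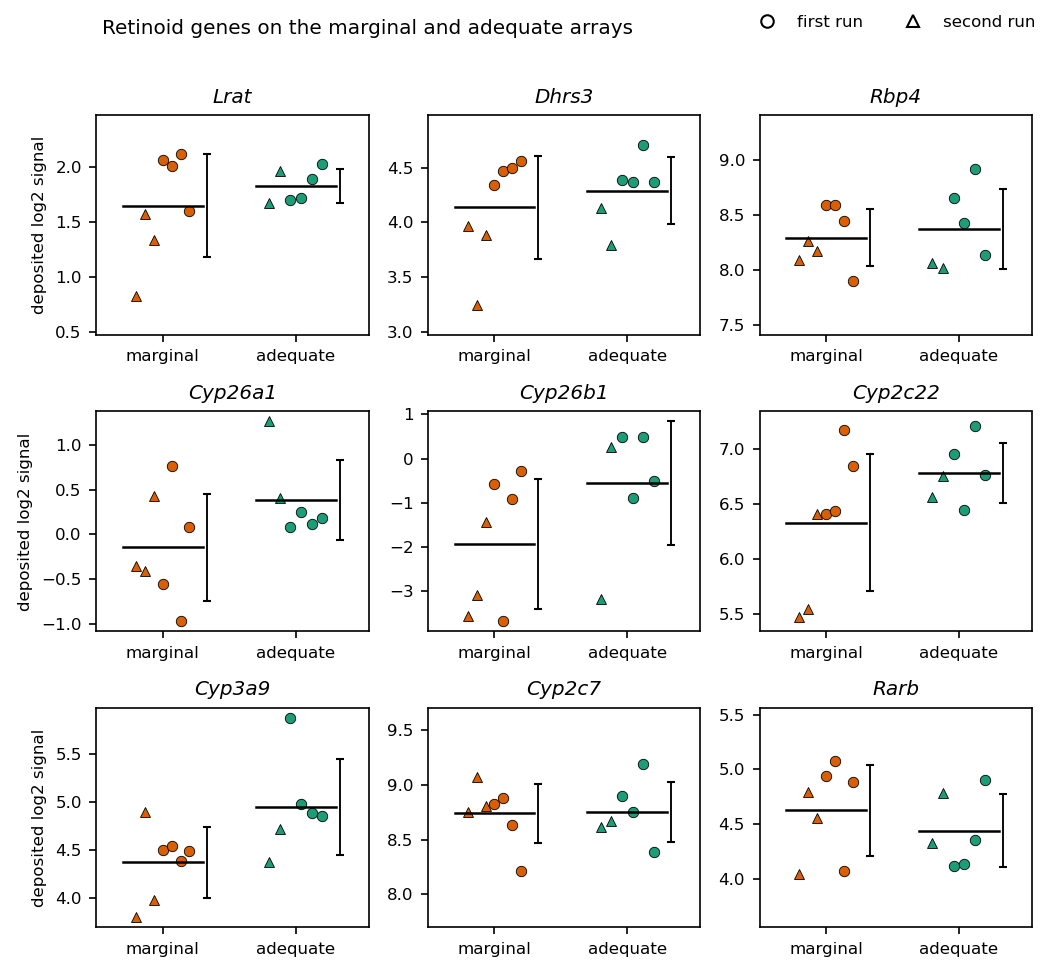
Deposited log2 signal of 9 retinoid genes on each of 7 marginal (left) and 6 adequate (right) arrays; circles are first-run and triangles second-run arrays, horizontal lines are group means and bars are ± 1 SD. The groups overlap in all 9 panels, and the lowest value of each of Lrat, Dhrs3, Cyp2c22 and Cyp3a9 is on a marginal array of the second run.

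To put the bounds in proportion, the same genes were set beside the diet without retinol in a fit of all 20 diet arrays. The 2 comparisons share the adequate arrays. In that fit 298 probe sets (1.17%) were called between deficient and adequate livers, 20 higher (0.0783%) and 278 lower (1.09%). It called 3 (0.0117%), of which 1 was higher (0.00391%) and 2 lower (0.00783%), between supplemented and adequate livers, and 0 (0%; 829 at an unadjusted p under 0.05) between marginal and adequate livers. A list of 37 genes was taken from earlier results of this same experiment in which they differed with retinol supply. It was chosen on the deficient, supplemented and adequate arrays used here and is no independent evidence.

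Of these 37 genes 24 (64.9%) lay within 2-fold between marginal and adequate livers, against 62.5% of all named genes. An unadjusted p under 0.05 went with higher marginal values in 5 and with lower values in 3. Over all probe sets these shares were 2.05% and 1.44%. The deficient minus adequate estimate lay outside the 95% interval of marginal minus adequate in 35 of the 37 genes, the exceptions being Hhip and Prelp. Sult1c3, a sulfotransferase, differed by −4.80 ± 0.56 between deficient and adequate livers, and by −0.71 ± 0.43 between marginal and adequate livers, with an interval of −1.60 to 0.18. Scd, which desaturates fatty acids, differed by −3.65 ± 0.46 between deficient and adequate livers, and its marginal interval was −1.25 to 0.60. For Fasn, the fatty acid synthase, the values were −2.66 ± 0.31 and −0.73 to 0.52, and for Acaca, which supplies it with malonyl-CoA, −1.73 ± 0.27 and −0.66 to 0.29. For Lrat they were −2.89 ± 0.39 and −0.54 to 0.25, and for Cyp2c22 −4.57 ± 0.30 and −0.79 to −0.01.

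Of the other genes of the list that were lower in deficient livers, the following had marginal intervals that included 0: Car2, a carbonic anhydrase (−0.65 to 0.22), Insig1, which restrains sterol synthesis (−0.42 to 0.32), Nr1h4, the bile acid receptor (−0.40 to 0.18), Adss1 (−0.62 to 0.15), Stac3 (−0.73 to 0.55), Elovl6 (−0.84 to 0.60), Cpa1 (−0.92 to 0.65) and Lifr, a cytokine receptor (−0.56 to 1.03). Lum, a matrix proteoglycan, had a wider interval of −0.88 to 1.45. For Pnpla3 the deficient estimate was −4.17 ± 0.74 beside the marginal interval given above, for Cyp26a1 −1.94 ± 0.46, for Rarb −1.28 ± 0.25, for Cyp2c7 −1.38 ± 0.26 and for Tgm2 −0.67 ± 0.16. The second of the 2 tested probe sets of Adss1 gave 0.41 where the first gave −0.24.

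The marginal intervals of 8 genes of the list did not include 0. Among them were Cyp2c22, given above, and Cyp3a9, with a marginal interval of −0.91 to −0.17 and a deficient minus adequate difference of −3.35 ± 0.25. Orm1, an acute phase glycoprotein, had 5.44 to 7.20 (median 6.49) on marginal arrays and 6.57 to 7.66 (median 6.80) on adequate arrays, and 4 marginal arrays lay below every adequate one. Its difference was −0.48 ± 0.20 (interval −0.89 to −0.06), and −1.53 ± 0.26 in deficient livers. A2ml1, a protease inhibitor, had 0.37 to 1.39 (median 1.04) on marginal arrays and −0.64 to 0.86 (median −0.10) on adequate arrays, and 4 marginal arrays lay above every adequate one. Its difference was 0.95 ± 0.30 (interval 0.33 to 1.58), and 1.91 ± 0.38 in deficient livers. Gstm2, a glutathione transferase, had a difference of 0.53 ± 0.20 (interval 0.11 to 0.94), Prelp, a matrix protein, 1.14 ± 0.41 (interval 0.28 to 2.00), and Cyp2a2, a cytochrome, 1.32 ± 0.59 (interval 0.09 to 2.54). Hhip, an inhibitor of hedgehog signalling, had a difference of 1.54 ± 0.67 (interval 0.16 to 2.92), with 1 adequate array at its floor. None of these passed the test over all probe sets (adjusted p = 0.999 for each, limma). All 8 had the sign of their deficient minus adequate difference, which shares the adequate arrays.

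A further 10 genes of the list had positive deficient minus adequate estimates, which were not called for Cela1, Cyp8b1 and Gadd45g. They had marginal intervals that included 0: Cyp17a1, a steroid hydroxylase (−0.47 to 1.07), Abcg5, a subunit of a sterol exporter (−0.89 to 0.92), Sds, which breaks down serine (−0.24 to 0.69), Rab30 (−0.84 to 0.45), Fabp7 (−0.26 to 0.48), Serpina7, which carries thyroid hormone (−0.49 to 0.91), Pla2g12a (−0.68 to 1.00), Cyp8b1 (−0.30 to 0.39), Gadd45g (−1.08 to 0.27) and Cela1 (−0.96 to 0.80).

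**Figure D3:**
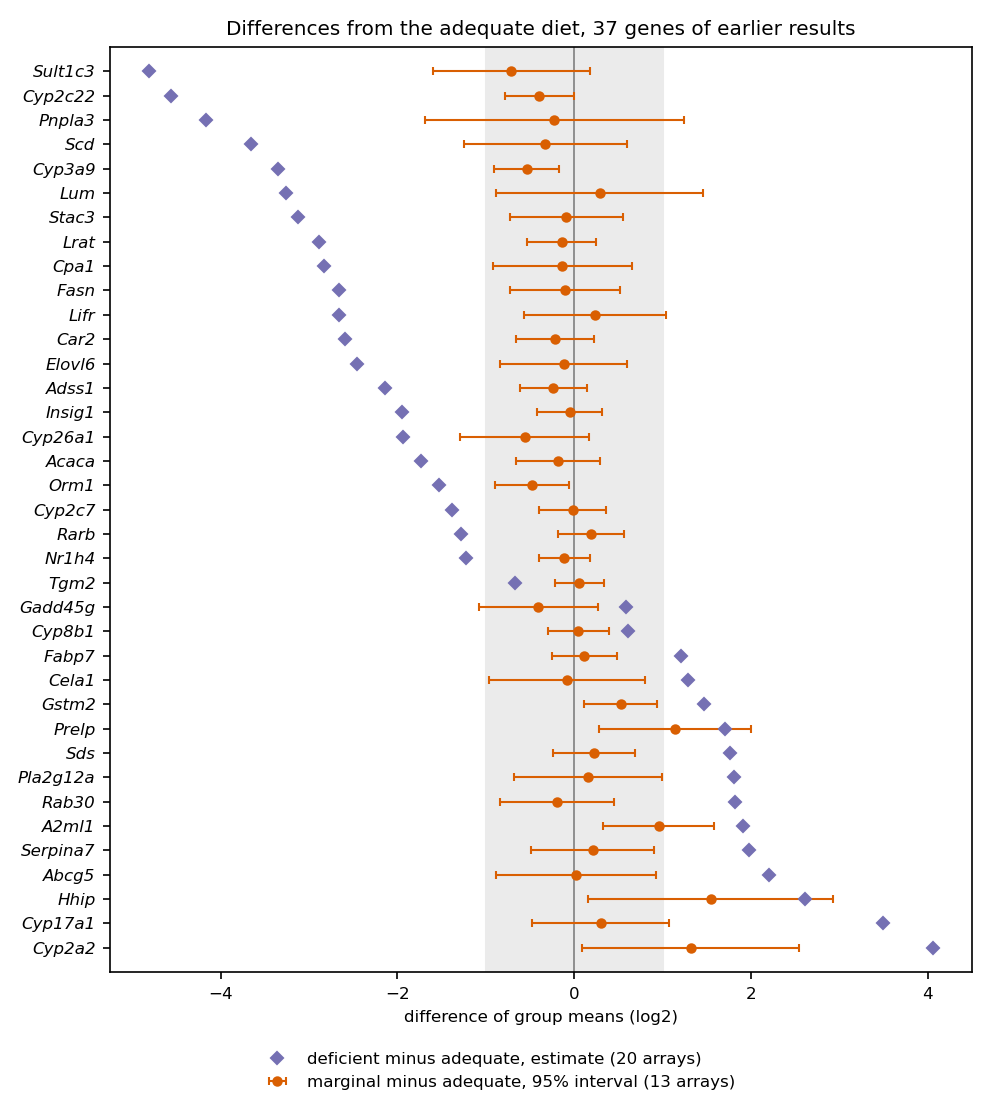
Marginal minus adequate difference with its 95% interval (orange, 13 arrays) and deficient minus adequate estimate (violet, 20 arrays) in log2 units for 37 genes chosen from earlier results of this experiment. The grey band spans a difference of −1 to 1; the violet estimate lies inside the orange interval for Hhip and Prelp only.

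Marginal and deficient livers were compared directly in the same fit, which called 467 probe sets (1.83%), 444 higher (1.74%) and 23 lower (0.09%) in marginal livers. Of the 37 genes 30 were called there. The list was chosen partly on these same deficient arrays, so this count is no independent evidence. The count between marginal and deficient was 197 without the run term. Cyp3a9 was 2.83 ± 0.24 higher in marginal than in deficient livers, Cyp2c22 4.22 ± 0.28 higher and Lrat 2.77 ± 0.37 higher (adjusted p = 7.62e-09, 5.22e-11 and 3.53e-05, limma). Cyp26a1 differed by 1.42 ± 0.44 between marginal and deficient livers, which did not pass (adjusted p = 0.0864). Between supplemented and adequate livers Cyp26a1 differed by 4.35 ± 0.61 (adjusted p = 0.001), from 2 supplemented arrays.

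**Figure D4:**
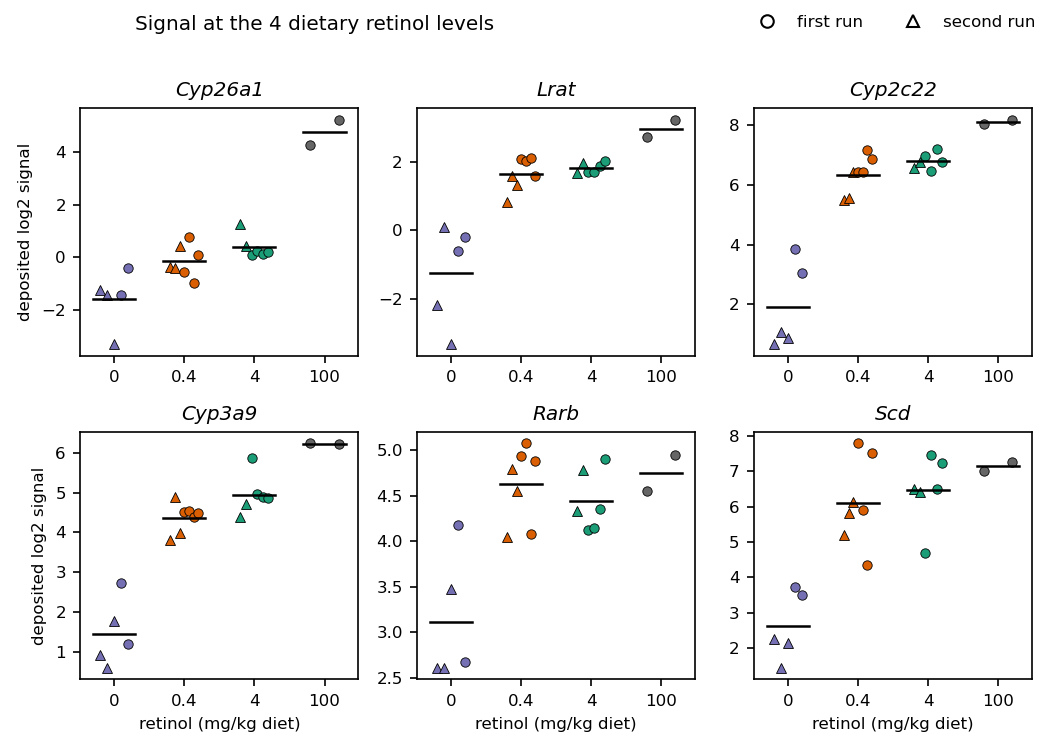
Deposited log2 signal of 6 genes at 0, 0.4, 4 and 100 mg retinol per kg diet, 1 point per array (5, 7, 6 and 2 arrays), with group means as lines; circles are first-run and triangles second-run arrays. The marginal (0.4) and adequate (4) points overlap in each panel, while the deficient (0) points of Lrat, Cyp2c22, Cyp3a9 and Scd lie below all of them.

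The genes with the smallest unadjusted p were mostly dim. Of the 16 named by rank, 8 in each direction, none was called and none was shown to lie within 2-fold. A mean signal below 1 was found for 13, and at least 1 array at the floor for 5. All 16 had the same sign in both runs. The rank came from a fit of both runs, which favours a same sign, so this count is no replication. Map7d2, a microtubule-associated protein, had −3.33 to −0.41 (median −2.66) on marginal arrays and −0.44 to 1.23 (median 0.19) on adequate arrays. Of the marginal arrays, 6 lay below every adequate array. The difference was −2.24 ± 0.60 (unadjusted p = 0.00107, adjusted p = 0.999), and the second probe set of the gene gave −0.77. Tpsb2, a mast cell tryptase, had −0.56 to 1.14 (median 0.87) on marginal arrays and −3.66 to 0.59 (median −2.03) on adequate arrays, which overlapped. Its difference was 2.37 ± 0.67 (unadjusted p = 0.00193).

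Mbp, known as a myelin protein, was the brightest of the 16, with 1.16 to 3.14 (median 2.30) on marginal arrays and 0.05 to 1.98 (median 1.46) on adequate arrays. The difference was 0.98 ± 0.28, and the 3 probe sets of Mbp ranged from 0.11 to 0.98. Serpinb1a, an inhibitor of neutrophil proteases, differed by 0.74 ± 0.21, while another of its probe sets gave −0.08. Sult1c2, a sulfotransferase, differed by 1.57 ± 0.49 and Sarm1, an enzyme that consumes NAD, by 1.38 ± 0.42, with 6 of 7 marginal arrays above every adequate array for Sarm1. Tas2r107, a bitter taste receptor, and Apobr, a lipoprotein receptor of macrophages, differed by 2.52 ± 0.77 and 2.31 ± 0.74, and each had 1 adequate array at its floor. On the lower side, Car11, a carbonic anhydrase-related protein, differed by −0.92 ± 0.26 with its probe sets from −1.06 to 0.36, and Gabbr1, a GABA receptor subunit, by −1.09 ± 0.33 with its probe sets from −1.09 to 0.38. Comp, a cartilage matrix protein, Chrne, a subunit of the muscle acetylcholine receptor, and Prss27, a serine protease, differed by −2.68 ± 0.78, −2.30 ± 0.70 and −2.35 ± 0.71, each with 1 marginal array at its floor. Bri3bp and Capn15, a calpain, differed by −1.48 ± 0.43 and −1.29 ± 0.40.

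Of all named genes, 62.5% lay within 2-fold and 32.7% within 1.5-fold, and the lists of energy and sterol metabolism had larger shares. All 22 tested genes of cholesterol synthesis lay within 2-fold, with differences from −0.46 to 0.13 and a median of −0.10. Dhcr7, the enzyme of its last step, had 4.32 to 4.97 (median 4.49) on marginal arrays and 4.58 to 5.52 (median 4.91) on adequate arrays. Of the marginal arrays, 4 lay below every adequate array, and the difference was −0.32 ± 0.15 (unadjusted p = 0.0414). Sqle, which oxidises squalene, differed by −0.46 ± 0.25. Of 37 genes of fatty acid oxidation, 35 (94.6%) lay within 2-fold and 23 (62.2%) within 1.5-fold. Acadl and Acadvl, acyl-CoA dehydrogenases, had bounds of 1.21-fold and 1.24-fold, and Hadhb, of the trifunctional protein, 1.18-fold. Hadhb had 5.09 to 5.49 (median 5.31) on marginal arrays and 5.03 to 5.44 (median 5.33) on adequate arrays. Pex11a, a peroxisomal protein, differed by −0.37 ± 0.17 (unadjusted p = 0.038), with 0.16 from its other probe set, and Bdh1, of ketone metabolism, by 0.21 ± 0.12.

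Of 30 genes of lipogenesis, 26 (86.7%) lay within 2-fold and 18 (60%) within 1.5-fold. Acacb, the mitochondrial acetyl-CoA carboxylase, was the member with an unadjusted p under 0.05: it had 0.46 to 1.85 (median 0.97) on marginal arrays and −2.28 to 1.10 (median 0.41) on adequate arrays, and differed by 0.89 ± 0.42. The lowest of the adequate values was replicate 5, the array that stood apart. Of 27 genes of bile acid synthesis and transport, 25 (92.6%) lay within 2-fold. Among them were Cyp27a1, a sterol hydroxylase, with a difference of 0.00 ± 0.13, and Akr1c14 (0.25 ± 0.19). Abcg8, the partner of Abcg5 in sterol export, was dim and differed by −1.62 ± 0.75 (interval −3.18 to −0.06). Gluconeogenesis and amino acid breakdown had 24 of 27 (88.9%) within 2-fold. Gls2, the liver glutaminase, had 4.87 to 5.39 (median 5.13) on marginal arrays and 5.11 to 5.89 (median 5.40) on adequate arrays, and differed by −0.29 ± 0.13 (interval −0.55 to −0.03). Igfbp1 differed by −0.50 ± 0.25.

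Drug metabolism had 13 of 19 genes (68.4%) within 2-fold, with Cyp1b1 at −0.56 ± 0.36. The sulfotransferases and glutathione transferases had 22 of 29 (75.9%), against 62.5% of all named genes. Acute phase genes had 21 of 24 (87.5%) within 2-fold. A2m, a broad protease inhibitor, had 1.34 to 2.56 (median 2.10) on marginal arrays and 0.99 to 2.12 (median 1.53) on adequate arrays, with a difference of 0.52 ± 0.21 (interval 0.07 to 0.96). The core clock had 9 of 16 (56.25%) within 2-fold. Tef, a clock-controlled transcription factor, differed by −0.92 ± 0.34 (interval −1.63 to −0.20) on the brightest of its 3 probe sets and by as little as −0.14 on another, and Bhlhe40, a repressor, by 0.36 ± 0.20. The time of death is not given in the sources used here. In each of these lists 0 genes were called, against 0% of all probe sets.

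Markers of other liver cells were followed because a change in their share would move their genes. In bulk RNA, fewer cells of a type and less RNA per cell cannot be told apart. No marker of any of 10 cell types was called. Differences were above 0 for 10 of 12 Kupffer cell markers (median 0.15), 10 of 12 sinusoidal endothelial markers (median 0.14) and all 7 cholangiocyte markers (median 0.34). So were those of all 5 B cell markers (median 0.27) and all 4 erythroid markers (median 0.03), but only 8 of 18 stellate and 2 of 10 acinar markers. Of all 25551 probe sets, 13974 were above 0, with a median of 0.03. The summed signal, with each array's median at 1, was 116 to 264 on marginal arrays and 131 to 209 on adequate arrays for Kupffer markers. It was 82.4 to 154 against 72.5 to 139 for endothelial markers, and 11.5 to 15.3 against 9.28 to 14.0 for cholangiocyte markers. The ranges overlapped, and the part of these cells in the other results was not tested. The Kupffer markers Cd5l and Cd68 differed by 0.40 ± 0.21 and 0.27 ± 0.16, the endothelial markers Kdr and Lyve1 by 0.34 ± 0.18 and 0.31 ± 0.17, and the cholangiocyte markers Krt19 and Anxa4 by 0.85 ± 0.56 and 0.34 ± 0.18. Other probe sets of Kdr and Lyve1 gave −0.03 and 0.06.

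Of 18 stellate cell markers, 9 (50%) lay within 2-fold, against 62.5% of all named genes. An unadjusted p under 0.05 was found for 2, both with higher marginal values: Prelp, given above, and Hgf, a growth factor, at 1.39 ± 0.57. Of all probe sets, 2.05% had such a p with higher values. The summed signal of the 18 markers was 83.1 to 110 on marginal arrays and 92.0 to 116 on adequate arrays. B cell markers (5 tested, with Cd37 at 0.43 ± 0.35 and Cd79b at 0.59 ± 0.61), T and NK cell markers (13 tested, with Cd3g at −0.58 ± 0.53 and Cd4 at 0.52 ± 0.54), erythroid markers (4 tested, with Ahsp at 0.34 ± 0.66 and Alas2 at 0.03 ± 0.20) and adipocyte markers (6 tested, with Fabp4 at 0.82 ± 0.96 and Cidec at −0.12 ± 0.14) had median bounds of 2.31-fold, 2.66-fold, 1.87-fold and 2.94-fold. For Fabp4, marginal replicate 1 and adequate replicate 2 were at their floors. Of 10 acinar markers of the pancreas, Pnlip, the pancreatic lipase, differed by −1.36 ± 0.59, with −0.21 in the first run, −3.26 in the second and 1 marginal array at its floor, and Amy2a3, an amylase, by −0.71 ± 0.75. The hepatocyte markers Apoa1 and Tat differed by 0.11 ± 0.16 and 0.43 ± 0.35.

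Both runs held both diets, so the marginal minus adequate difference could be compared between them. No probe set was called for a diet-by-run interaction (0 of 25551, 0%; lowest adjusted p 0.795, limma), and 1286 (5.03%) had an unadjusted p under 0.05. Over all probe sets the first run had a median difference of 0.11, and the second one of −0.10. Read against that shift, interferon response genes had a first-run median of 0.11 and a second-run median of −0.44, with 9 of 42 at an unadjusted interaction p under 0.05. Lipogenesis genes had 0.11 and −0.26, with 6 of 30, and retinoid genes 0.02 and −0.14, with 8 of 69. Kupffer cell markers had medians of 0.34 and −0.16 in the first and the second run, and their part in the interferon values was not tested. These medians describe the lists and were not tested.

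Isg15, an interferon-induced modifier, had 1.21 to 2.96 on marginal arrays and 2.09 to 3.09 on adequate arrays. Within the first run it differed by 0.34, and within the second by −0.87 (limma interaction, adjusted p = 0.892). Ifi44l gave −0.36 from first-run and −0.94 from second-run arrays, with an overall difference of −0.58 ± 0.25 (unadjusted p = 0.0281, not called), and Irf7, a factor that drives interferon genes, differed by −0.27 ± 0.17. Mid1ip1, which activates acetyl-CoA carboxylase, gave 0.47 from first-run arrays and −0.39 from second-run arrays. Retsat differed by 0.32 and −0.97, Cpa1 by 0.63 and −1.40, and Rbp7, a retinol binding protein, by −1.32 and 2.67. For Rbp7, adequate replicate 1 of the second run was at its floor. The second run rests on 3 marginal and 2 adequate arrays, and none of these differences between runs was called.

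**Figure D5:**
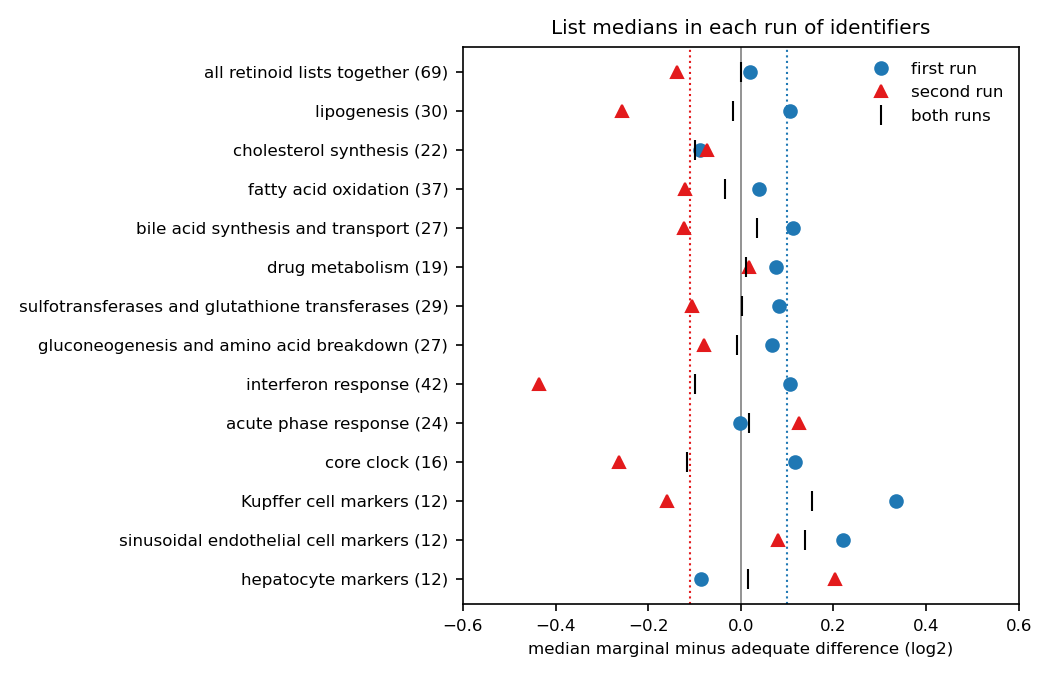
Median marginal minus adequate difference (log2) of 14 gene lists, with the retinoid lists pooled as 1, in the first run (blue circles), the second run (red triangles) and both (black ticks), with the number of genes tested in brackets. Dotted lines are the medians of all named genes in each run (0.10 and −0.11); of the lists plotted, interferon response has the lowest second-run median.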

How the data were processed

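RNA from individual rat livers was hybridised to single-colour Affymetrix arrays. The authors deposited 1 table of log2 values per probe set and array, with GCOS named in the submitters' processing notes; its version and the base of the logarithm are not given in the sources used here, and base 2 was inferred from the values. Each array's median is 0 and its lowest values share a floor. Values were used as deposited. Control probe sets (57) were left out, and a probe set was tested if it exceeded the 40th percentile of its own array in at least 2 of the 13 arrays. Of 31099 probe sets, 20832 had 1 gene name in the platform annotation, 436 had several and 9831 none; a gene was represented by its probe set of highest mean.

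Differences were fitted with limma 3.58.1 in R 4.3.3 (lmFit on diet and run, eBayes with trend) on the 13 arrays, and p-values were adjusted by Benjamini-Hochberg over 25551 probe sets. The 20 diet arrays were fitted together for the retinol levels. The fit, its intervals and its equivalence test were tested on simulated data. The number of arrays limits the precision. Genes named were the members of the retinoid lists that passed the filter, the genes of earlier results, the 8 of smallest p in each direction, the 2 of smallest p in each other list, and 5 list members each from the interaction and the equivalence tests. Members and lists were chosen with earlier results of these data known.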

Additional observations from a re-analysis of the deposited data

Results flagged for a closer look

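Of 314 sets of values (a named gene or control measure in 1 diet group), 21 (6.69%) had a highest or lowest array set apart from the others by Dixon's criterion, which chance alone meets in about 1 of 20 groups. All are deposited log2 values, and their causes were not tested.

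On marginal arrays, replicate 1 was lowest for Akr1c14 (6.44, the others from 7.10), Cd37 (−0.64) and Kdr (3.73, the others from 4.58). Replicate 2 was lowest for Apobr (−2.59), Cd4 (−2.77), Cyp1b1 (−2.28) and Rxra (−1.72, the others from 0.89). Replicate 4 was lowest for Nr4a1 (−3.28) and Rbp7 (−2.84), and replicate 7 for Ttr (8.13).

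On adequate arrays, replicate 1 was highest for Cyp26a1 (1.26, the others up to 0.41) and Apobr (−0.029). Without this array the Cyp26a1 difference was −0.38 on the log2 scale, against −0.56 with it. Replicate 2 was highest for Cpa1 (4.27) and Pdk4 (5.92). Replicate 4 was lowest for Krt19 (−3.93) and Rdh13 (−4.12), and replicate 6 was highest for Tas2r107 (−0.57). Replicate 5 was lowest for Acacb (−2.28) and Comp (−2.57), and highest for the 3′ minus 5′ difference of GAPDH (1.37) and of actin (3.16).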

How the results depend on the processing

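No probe set was called between marginal and adequate livers under any alternative but 1: the second run alone called 1 (RGD1309362, −1.77 ± 0.19, adjusted p = 0.0119, limma), which differed by 0.05 in the first run. Unadjusted p-values under 0.05 numbered 892 with the settings of the report and 829 with 20 arrays. The interaction gave 0 to 1 call when single arrays were left out; the 1 was Fam111a without marginal replicate 1 (adjusted p = 0.0293).

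The median half-width, 0.76 in the report, was 0.841 with 20 arrays, 0.798 without the run term, 0.974 in the first run alone, 1.13 in the second alone, 1.04 without the filter, 0.440 with a stricter filter, 0.62 above the floor on all arrays, 0.741 without a variance trend, 0.727 with array weights and 0.573 for gene means. It was 0.753 to 0.833 with 1 array left out. Within 2-fold lay 7456 probe sets in the second run alone and 7922 genes by gene means (of 12749), and 11475 to 12655 probe sets with 1 array left out. Within 1.5-fold lay 2390 with 20 arrays, 2345 without the run term, 0 in either run alone or without a trend, and 3385 to 6130 with 1 array left out. The lowest were without adequate replicate 2 (3385) and without adequate replicate 1 (3668).

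Whether the replicate numbers of the labels pair the samples could not be decided. Residuals of the 6 same-numbered pairs correlated at −0.20 to 0.05. Deviations from the group means correlated at −0.10 to 0.13, with 2 pairs over 0.1. Residuals sum to 0 within the terms of a fit, which pulls down the correlation of pairs from the same run. They cannot show that pairing was absent. With the replicate block and run the half-width was 0.906, 0 lay within 1.5-fold and 0 were called.

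Directions reversed for Lrat (0.12) and Dhrs3 (0.0095) in the first run alone, and for Rarb (−0.096), Rbp4 (0.14) and Cyp2c7 (0.24) in the second. Rbp4 and Cyp2c7 also reversed with array weights (0.0025 and 0.033) and with the replicate block (0.083 and 0.11). With 1 array left out they ran from −0.114 to 0.0596 and from −0.0855 to 0.0793. Without the run term, deficient minus adequate gave 166 calls and marginal minus deficient 197. Permuted over all 13 arrays, the percent at the floor (2.03, exact p = 0.333) and the floor (0.40, exact p = 0.426) did not pass. Permuted within runs, as in the report, both had an exact p of 0.00571. The causes were not tested. Of 153 named genes, 0 were called under any of 27 settings, and 53 of the 91 within 2-fold stayed so under every one.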
